A study of Mus musculus with 8 samples.

Results

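The 8 genes described here encode the receptors and ligands of the adrenomedullin and calcitonin gene-related peptide (CGRP) system, and were read in all 8 columns of a table of raw counts for 49671 mouse gene identifiers. They are Calcrl, Ramp1, Ramp2, Ramp3, Calcr, Adm, Calca and Calcb, found by matching Ensembl identifiers to symbols of the mm10 annotation, and all 8 were matched. The set was chosen by pathway, with the counts of these 8 libraries already known, so its levels and its ratios between libraries are given as a description. Each library is ribosomal RNA depleted total RNA from 1 tumor of a mouse that expresses Cre from the Hprt locus and carries loxP sites in Ewsr1 and Atf1 (HprtCre; Ewsr1-loxP; Atf1-loxP). Recombination between both loci joins Ewsr1 to Atf1, the counterpart of the fusion of human clear cell sarcoma. The tumors, numbered 1, 2L, 2R, 3, 4a, 4b, 5 and 6, were frozen at morbidity and had received no drug. They form 1 group, with no normal tissue and no tumor of another genotype, and the labels do not say what the numbers and suffixes mean or give age, sex or strain. Hprt is active in nearly all cells, so the Cre is not confined to 1 cell type.

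Calcrl encodes a G protein-coupled receptor that reaches the cell surface only with a receptor activity-modifying protein (RAMP). With RAMP1 it is the receptor for CGRP, and with RAMP2 or RAMP3 it is a receptor for adrenomedullin. These receptors act mainly through the stimulatory G protein and cyclic AMP, whose kinase phosphorylates CREB and ATF1. Adrenomedullin, encoded by Adm, is a vasodilator needed for blood and lymph vessels and is induced by hypoxia. CGRP is a vasodilator of sensory nerves, and vessel walls are a main site of Calcrl and Ramp2 in normal tissue.

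The promoter stretches of 4 members are shown because the results turn on these genes: Ramp3, the most abundant, Ramp1, the most variable, and the ligand genes Adm and Calca. They are the 250 bases before the RefSeq start of each gene on GRCm38.p6 (the mm10 assembly), written 5′ to 3′ on the gene's strand. Capitals mark the letters TGACG, the core of the cyclic AMP response element bound by CREB and ATF1, and GCGTG, a core of the hypoxia response element, on either strand.
Ramp3 (chr11:6658283-6658532, plus strand): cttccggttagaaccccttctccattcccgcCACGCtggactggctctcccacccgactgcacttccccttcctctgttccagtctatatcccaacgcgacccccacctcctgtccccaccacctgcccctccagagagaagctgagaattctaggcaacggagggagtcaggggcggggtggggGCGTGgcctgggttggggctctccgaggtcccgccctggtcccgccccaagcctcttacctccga
Ramp1 (chr1:91179572-91179821, plus strand): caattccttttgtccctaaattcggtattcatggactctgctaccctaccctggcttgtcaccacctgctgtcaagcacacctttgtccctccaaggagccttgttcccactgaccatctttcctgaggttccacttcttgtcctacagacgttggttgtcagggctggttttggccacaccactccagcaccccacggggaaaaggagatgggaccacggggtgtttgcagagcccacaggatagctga
Adm (chr7:110627407-110627656, plus strand): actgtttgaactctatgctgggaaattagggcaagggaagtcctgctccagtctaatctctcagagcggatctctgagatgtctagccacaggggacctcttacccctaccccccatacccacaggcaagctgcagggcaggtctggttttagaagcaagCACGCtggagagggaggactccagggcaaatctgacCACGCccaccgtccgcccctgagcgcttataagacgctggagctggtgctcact
Calca (chr7:114636358-114636607, minus strand): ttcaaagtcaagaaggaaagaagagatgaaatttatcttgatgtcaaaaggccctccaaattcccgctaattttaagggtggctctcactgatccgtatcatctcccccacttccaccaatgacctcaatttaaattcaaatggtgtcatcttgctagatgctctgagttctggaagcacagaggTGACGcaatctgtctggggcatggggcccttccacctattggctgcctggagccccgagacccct
Entries were found for 6 of the 8 members. The full palindrome TGACGTCA was in none of their windows and in 1.55% of all 32851 promoter windows of the same length. TGACG or its reverse CGTCA, letters that the palindrome also holds, was in 17.8% of all windows, once in that of Calca, 65 bases before the start, and in both windows listed for Calcr. GCGTG or its reverse CACGC was in 28.2% of all windows and at 2 places each in those of Ramp3 and Adm, and the other hypoxia core, ACGTG or CACGT, was in 16.6% of all windows and in none of the members' windows. These matches are letters in a sequence and not measured binding sites.

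Library totals ran from 4817902 counts in tumor 3 to 19682149 in tumor 2L. Values are CPM, the counts of a gene scaled to a common library size, after scaling by the trimmed mean of M-values (TMM), whose factor was 0.39 in library 3 and 0.83 to 1.36 in the other 7. Library 3 stands apart: with 17952 genes detected it is the shallowest, and the values of the 8 genes there rest on 0 to 112 counts each. Ewsr1 and Atf1 averaged 88.8 and 27.0 CPM. The melanocyte regulator Mitf was at 30.3 CPM or more in every tumor, and Dct, a pigment enzyme gene, averaged 18.8 ± 24.6 CPM, from no count in tumor 6 to 74.04 CPM in 3. Pmel averaged 1.04 ± 0.637 CPM, Sox10 did not exceed 0.235 CPM, and Tyr and Mlana had no count. In bulk tumors fewer cells of a type and less RNA per cell cannot be told apart.

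Ramp3 was by far the most abundant gene of the system in all 8 tumors, the receptor gene Calcrl was present at a moderate level, and the ligand genes were low. Per kilobase of merged exons, Ramp3 averaged 345 ± 268 CPM (SD, n = 8), Ramp1 17.95 ± 30.1, Calcrl 5.71 ± 2.62, Adm 2.36 ± 2.33, Ramp2 1.73 ± 0.941, Calca 0.410 ± 0.800, Calcb 0.186 ± 0.248 and Calcr 0.00712 ± 0.0132. Ramp3 exceeded Ramp1 in 8 of 8 tumors, by 5.27-fold to 419-fold. With merged exons the neighbours below it were not separated beyond their spread: Ramp1 exceeded Calcrl in 4 of 8 tumors and Adm exceeded Ramp2 in 4 of 8. Calcrl exceeded Adm in 7 of 8 tumors, Ramp2 exceeded Calca in 7 of 8 and Calca exceeded Calcb in 3 of 8. Annotated lengths bear on this order, and the median over coding transcripts, 424 bases for Ramp2, was not limited to complete transcripts. With the median length of the coding transcripts in place of merged exons, Ramp2 averaged 13.5 CPM per kilobase, came below Ramp1 and above Calcrl, which it exceeded in 7 of 8 tumors, against 1 of 8 with merged exons. With those lengths Ramp1 exceeded Calcrl in 7 of 8 tumors and Adm exceeded Ramp2 in 0 of 8, and Calca exceeded Calcb in 5 of 8, so these orders rest on the length used. The first place of Ramp3 was the same with both lengths.

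**Figure D1:**
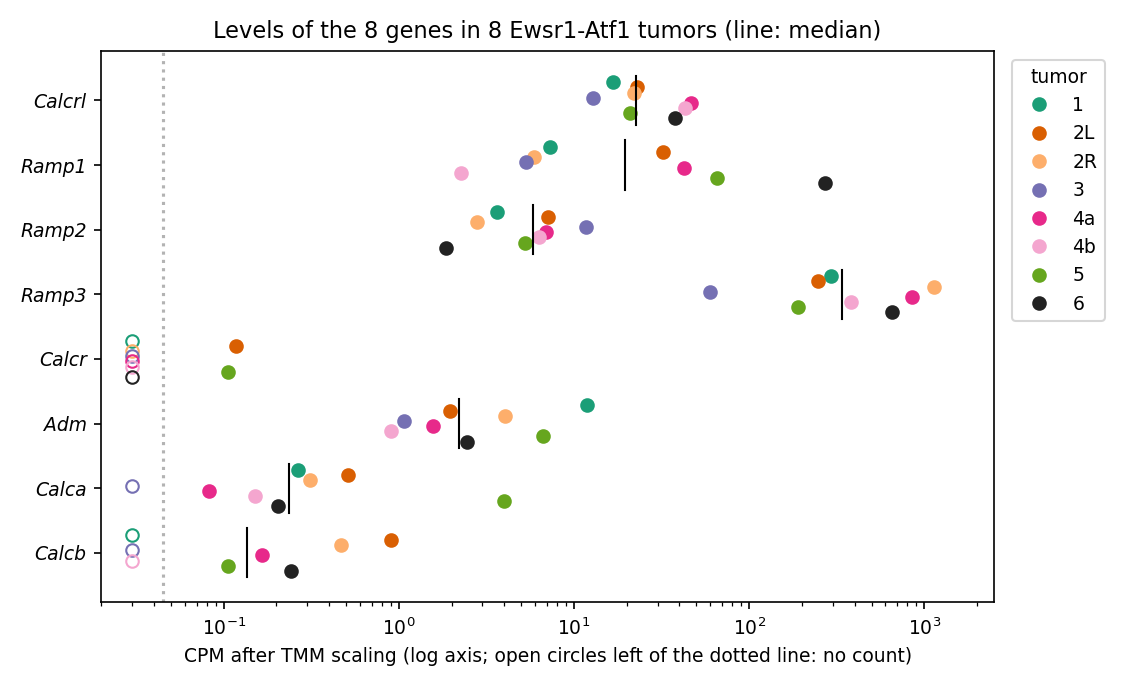
CPM of each gene (rows) in each of the 8 tumors (points, colored by tumor) on a log axis, with the median as a vertical line and open circles for tumors without a count. Ramp3 lies between 59.7 and 1133 CPM, Ramp1 spreads from 2.27 to 273 CPM, and Calcr has counts in tumors 2L and 5 alone.

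Calcrl (ENSMUSG00000059588, mm10 chromosome 2, 84330626 to 84425411, minus strand) was, after TMM scaling, the least variable of the 4 members that passed the filter on low counts. It stood at 46.7 CPM in tumor 4a, at 43.1 in 4b and at 37.7 in 6. The other 5 tumors were lower, with 22.96 CPM for 2L, 22.1 for 2R, 20.9 for 5, 16.6 for 1 and 12.8 for 3. Its level per kilobase, at the 50.97th percentile of the 11505 genes kept, was close to the middle. The SD of its log2 CPM was 0.67, against a median of 0.51 over all genes kept.

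Calcr (ENSMUSG00000023964, chromosome 6, 3685680 to 3764714, minus strand) encodes the calcitonin receptor, which forms amylin receptors with RAMPs. It had 3 counts in 2L, 1 in 5 and none in the other 6, where 0 counts allow up to 0.122 CPM in tumor 6 and up to 1.60 CPM in tumor 3. Osteoclasts normally express it, and their fusion genes Ocstamp and Dcstamp averaged 0.389 and 0.103 CPM. Acp5 and Ctsk, which macrophages and fibroblasts can also make, averaged 40.3 and 108 CPM. Another listed osteoclast marker, Atp6v0d2, averaged 4.63 CPM. It had 13.3 CPM in tumor 5, 12.0 in 2R, 3.25 in 2L and, at the lowest, 0.227 in 4b. Of both receptor genes, Calcrl was the one with counts in every tumor.

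Ramp3 (ENSMUSG00000041046, chromosome 11, 6658521 to 6677475, plus strand) was highest in tumor 2R at 1133 CPM, followed by 4a at 850.5 and 6 at 656. It had 382.5 CPM in 4b, 294 in 1, 246 for 2L and 191 for 5. Tumor 3 was the lowest, at 59.7 CPM from 112 counts. Its level per kilobase lay at the 99.4th percentile of the genes kept, and the SD of its log2 CPM of 1.36 at the 95.8th. The mean was 477 ± 369 CPM over 8 tumors and 536 ± 355 without library 3. The pseudogene Gm11978 overlaps it on the opposite strand and had 8 counts over all libraries.

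Ramp1 (ENSMUSG00000034353, chromosome 1, 91179822 to 91225196, plus strand) varied most. Tumor 6 was far above the rest, at 273 CPM from 6706 counts. It was followed by 5 at 65.7 CPM, 4a at 42.7 and 2L at 32.1. The other 4 lay below 10 CPM, with 7.28 for tumor 1, 5.92 for 2R, 5.33 for 3 and 2.27 for 4b. The highest value was 120 times the lowest, against a median of 2.95 over all genes kept, and the SD of log2 CPM of 2.29 lay at their 99.6th percentile. The mean of 54.2 ± 91.1 CPM rests on tumor 6, without which it was 23.0 CPM.

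Macrophage markers also had their highest summed level in tumor 6. The 5 macrophage markers summed to 2372 CPM there and to between 176 and 1071 CPM in the other 7, and Mrc1, the highest of them, stood at 1231 CPM. The 8 peripheral neuron markers summed to 165 CPM in tumor 6, 232 in tumor 1 and 27.8 to 99.96 in the other 6, with Prph and Tubb3 highest in tumor 6 at 65.2 and 48.6 CPM and the axonal genes Nefl, Nefm and Scn9a below 1 CPM on average. Their part in the level of Ramp1 was not tested.

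Ramp2 (ENSMUSG00000001240, chromosome 11, 101246028 to 101259546, plus strand) was low in CPM throughout. It had 11.7 CPM in tumor 3, 7.09 for 2L, 6.92 for 4a, 6.35 for 4b and 5.27 for 5, and less in 1 (3.64), 2R (2.80) and 6 (1.87). The highest value, in tumor 3, rests on 22 counts, with a counting interval of 7.34 to 17.7 CPM (exact Poisson, 95%, counting error only). That first place also rests on the TMM factor of 0.39 in library 3. The mean was 5.71 ± 3.11 CPM (SD, n = 8), and its level per kilobase of merged exons lay at the 12.4th percentile of the genes kept. That place rests on a merged length of 3301 bases, against a median of 424 bases for its transcripts annotated as coding. Such medians take in every annotated coding transcript, with no check that it is complete. For Cdh5 the median was 346 bases, against 4203 merged. If short partial transcripts set the median, levels per kilobase on that length are too high. With coding transcript lengths Ramp2 averaged 13.5 CPM per kilobase, above the 7.01 of Calcrl, and no percentile was computed. Vps25 (101253707 to 101259549), on the same strand, lies almost wholly within the annotated span of Ramp2 and averaged 0.456 CPM. Reads in the overlap cannot be assigned to either gene alone, and how they were counted is not given in the sources used here. If they were left out, the levels of both genes are undercounts.

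Ramp3 made up most of the RAMP transcripts in each tumor. Of the summed per-kilobase level of the 3 genes it held 99.7% in tumor 2R, 99.0% for 4b, 98.4% for 1, 97.4% for 4a, 93.3% for 2L, 89.1% for 3, 85.5% for 5 and 83.97% for 6. Ramp1 held 15.9% in tumor 6, 13.5% in 5 and 0.238% in 2R. Ramp2 held 7.31% in tumor 3 and at most 1.13% elsewhere, so its mean of 1.40% was 0.549% without library 3. As raw counts, not scaled by length, Ramp1 was 29.3% of 22891 RAMP counts in tumor 6 (Wilson 95% interval 28.7 to 29.9) and 0.518% of 7334 in 2R (0.378 to 0.710). With coding transcript lengths the mean share of Ramp3 was 80.1%, with a range of 58.8% in tumor 3 to 98.5% in 2R, and the mean share of Ramp1 was 12.9%.

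Set against the receptor that the RAMPs accompany, Ramp3 stood in excess in all tumors. Per kilobase, it was 16.5 times Calcrl in tumor 3 and 181 times in 2R, with a median of 49.7 times. Ramp1 was 11.7 times Calcrl in tumor 6, 5.09 times in 5, 2.26 times in 2L and 1.48 times in 4a, and below Calcrl in 1, 2R, 3 and 4b. With coding transcript lengths Ramp1 was 33.7 times Calcrl in tumor 6 and above it also in 1 (2.05 times), 2R (1.25) and 3 (1.94), which leaves 4b below, at 0.245 times. Ramp2 was below Calcrl in 7 of 8 tumors, the exception being tumor 3 at 1.36 times, but with coding transcript lengths it was above Calcrl in 7 of 8, the exception being tumor 6 at 0.465 times. These are ratios of RNA levels, and protein was not measured.

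**Figure D2:**
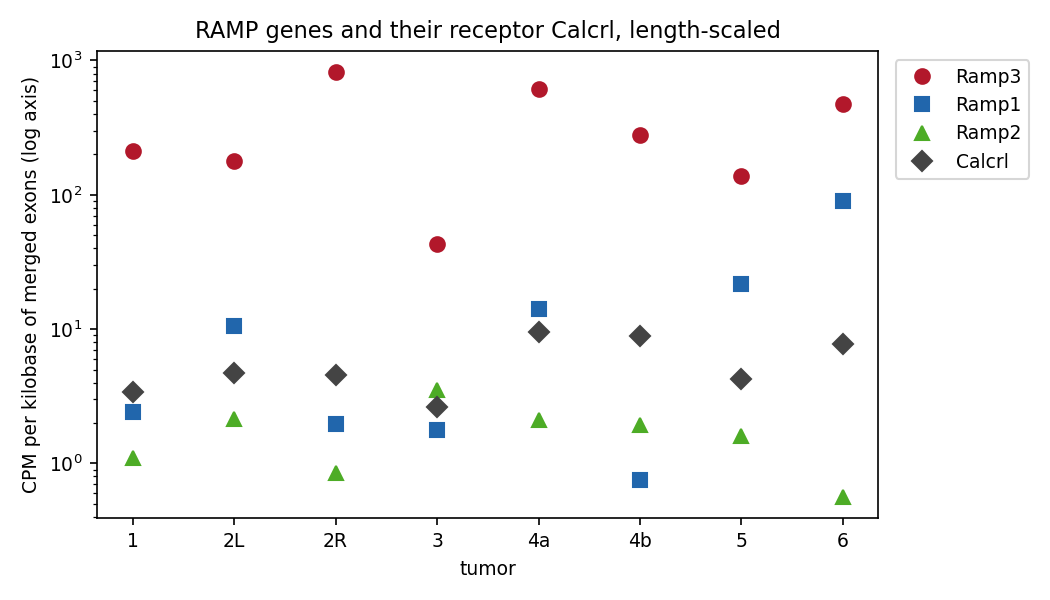
CPM per kilobase of merged exons (log axis) of Ramp3, Ramp1, Ramp2 and Calcrl in each tumor. Ramp3 lies above the other 3 genes in all 8 tumors, and Ramp1 crosses Calcrl, from 0.750 against 8.84 in tumor 4b to 90.2 against 7.73 in tumor 6.

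Adm (ENSMUSG00000030790, chromosome 7, 110627661 to 110629820, plus strand) was the most abundant of the 3 ligand genes. It was highest in tumor 1 at 11.9 CPM and in 5 at 6.63 CPM. The other 6 had 4.05 (2R), 2.44 (6), 1.96 (2L), 1.57 (4a), 1.07 (3) and 0.907 CPM (4b). The value in tumor 3 rests on 2 counts and has a counting interval of 0.129 to 3.85 CPM. The mean was 3.82 ± 3.77 CPM (SD, n = 8). An antisense gene that overlaps Adm, Gm28863, had 5 counts over all libraries.

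Calca (ENSMUSG00000030669, chromosome 7, 114631478 to 114636357, minus strand) gives calcitonin or αCGRP by alternative splicing, which counts per gene do not separate. It had 38 counts in tumor 5, which is 4.002 CPM (counting interval 2.83 to 5.49). In the other tumors it had 13 counts (2L), 5 (6), 3 (1), 2 (each of 2R, 4a and 4b) and none (3), at most 0.51 CPM. Its mean of 0.691 CPM was 0.218 CPM without tumor 5. Calcb (ENSMUSG00000030666, chromosome 7, 114718643 to 114723365, plus strand), which encodes βCGRP, had 23 counts in 2L, at 0.901 CPM, at most 6 counts in any other tumor and none in 1, 3 and 4b. Its mean of 0.235 CPM was 0.140 CPM without 2L. The 2 genes are close paralogs, and how reads matching both were counted is not given in the sources used here.

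Markers of skin, fat and muscle were uneven between the tumors. Of these lists, the keratinocyte sum alone was high both in tumor 5, the highest in Calca, and in 2L, the highest in Calcb. The 4 keratinocyte markers summed to 853 CPM in 2L and 685 CPM in 5, against at most 301 CPM in the other 6. In 2L Dsp, Dsg3 and Krt14 stood at 411, 396 and 45.6 CPM, and in 5 at 350, 280 and 55.1 CPM. Krt5 went the other way, with 0.392 CPM in 2L, 0.105 CPM in 5 and 193 CPM in tumor 3. The 4 fat cell markers summed to 114 CPM in tumor 5, with Adipoq at 4.63 CPM, against at most 18.1 CPM elsewhere and 8.03 CPM, the lowest, in 2L. The 6 skeletal muscle markers summed to 18880 CPM in 2L, but to 6105 CPM in tumor 3, where Calca and Calcb had no count, and to 58.1 CPM in tumor 5. Their part in the levels of Calca and Calcb was not tested.

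The libraries that share a title number gave unlike RAMP levels. In 2L and 2R, Ramp1 stood at 32.1 and 5.92 CPM, a log2 ratio of 2.41 (counting interval 1.97 to 2.95). Ramp3 went the other way, at 246 CPM in 2L and 1133 CPM in 2R, a log2 ratio of -2.20 (-2.25 to -2.16). Ramp2, at 7.09 and 2.80 CPM, had a ratio of 1.30 (0.638 to 2.13), and Adm, at 1.96 and 4.05 CPM, one of -0.997 (-1.76 to -0.304). Calcrl differed little, at 22.96 and 22.1 CPM with a ratio of 0.05 (-0.212 to 0.330).

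Between 4a and 4b, Ramp1 stood at 42.7 and 2.27 CPM. That log2 ratio of 4.16 (3.71 to 4.81) was matched or exceeded by 0.0174% of the genes kept. Ramp3 followed with 850.5 CPM in 4a and 382.5 CPM in 4b, a ratio of 1.15 (1.11 to 1.198). Calcrl and Ramp2 had ratios of 0.11 (-0.0321 to 0.262) and 0.12 (-0.263 to 0.520), and Adm 0.71 (-0.172 to 1.87). Of the 11505 genes kept, 17.4% differed at least 2-fold in either direction when 2L was set against 2R, Ramp1, Ramp2 and Ramp3 among them. For 4a against 4b it was 4.45%, with Ramp1 and Ramp3 among them. The members were selected on a pathway with these ratios known and each pair is 1 library against 1, so nothing is read from these shares.

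**Figure D3:**
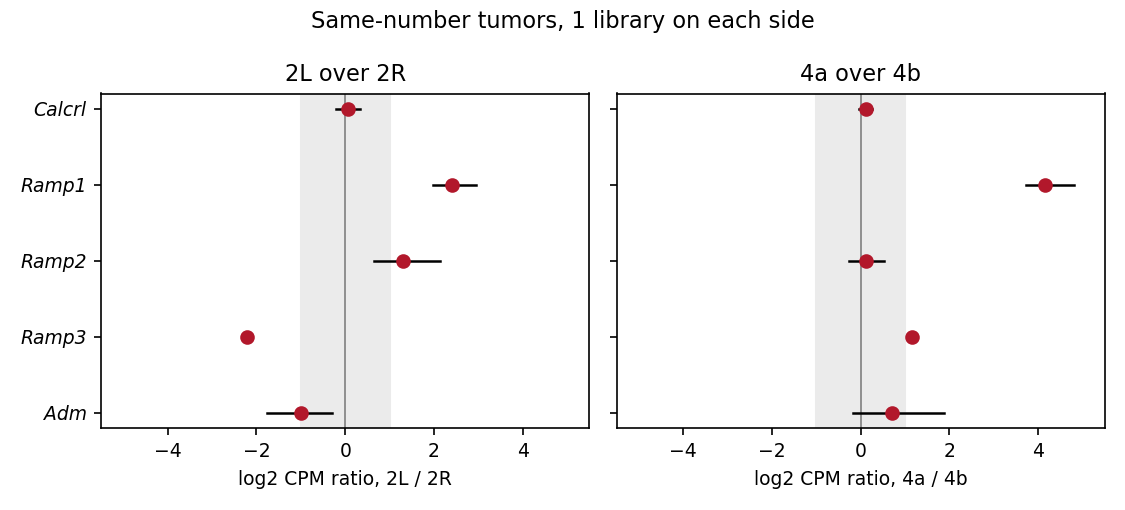
Log2 CPM ratios of 2L over 2R (left) and 4a over 4b (right) for the 5 members with at least 10 counts in each of the 4 libraries, with 95% counting intervals as lines and differences under 2-fold shaded. Ramp1 lies to the right in both panels, at 2.41 and 4.16, Ramp3 lies at -2.20 and 1.15, and Calcrl lies near 0 in both.

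Relations between members, and between members and marker scores, were computed over the 6 title numbers, with 2L and 2R averaged and 4a and 4b averaged. Of 8 relations, 0 passed the correction for multiple tests by Pearson's r or Spearman's rho, and 1, that of Calcrl with Ramp3, had an unadjusted exact permutation p under 0.05. A score is the mean log2 CPM of the markers kept.

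Calcrl with Ramp3 gave r = 0.83 (two-sided exact permutation p = 0.0347, with p = 0.256 once adjusted over 8 relations) and rho = 0.89 (exact permutation p = 0.0333, with p = 0.156 once adjusted). Tumor 3 was lowest in both genes, and numbers 4 and 6 were highest in both. Under the 12 alternatives the r of this relation ran from 0.45, over 7 libraries without library 3, to 0.95, with library totals, and its adjusted p from 0.0556 to 0.573. Leaving out 4 and 6, which lay farthest from the median Calcrl level, gave r = 0.84 over 4 points. With Ramp1 the r of Calcrl was 0.50 (exact permutation p = 0.296, with p = 0.564 once adjusted) and rho 0.60 (exact permutation p = 0.242, with p = 0.483 once adjusted), and without 4 and 6 r was 0.71. With Ramp2 it was -0.47 (exact permutation p = 0.353, with p = 0.564 once adjusted) and rho -0.26 (exact permutation p = 0.658, with p = 0.752 once adjusted), and without 4 and 6 r was -0.71. The direction with Ramp2 turned, to 0.04, when CPM were scaled by library totals, and to 0.16 over 7 libraries without library 3.

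Ramp2 with the endothelial score, whose 12 markers all passed the filter, gave r = 0.70 (exact permutation p = 0.107, with p = 0.285 once adjusted) and rho = 0.83 (exact permutation p = 0.0583, with p = 0.156 once adjusted). Without 3 and 6 r was 0.98. With the median in place of the mean of the markers, r was 0.97 (exact permutation p = 0.00139, the smallest that permutations of 6 points can give, with p = 0.0111 once adjusted). Over the 7 libraries without library 3, r was 0.94 (exact permutation p = 0.00278, with p = 0.0222 once adjusted). That p counts libraries of the same title number as separate points. They may share an animal, so it may be too small. Under the other 10 alternatives the relation did not pass, and the adjusted p reached 0.422. The adjustment was made within each setting and does not cover the number of settings tried. Members and marker lists were also chosen with earlier results of these data known. For both reasons these p-values cannot say how often such an r arises by chance, and no conclusion is drawn from them. The junction genes Pecam1 and Cdh5 were lowest in tumor 6, at 29.1 and 20.5 CPM, where Ramp2 was also lowest, as were 9 of the 12 markers in all. Egfl7 was highest there, at 365 CPM, Kdr second highest, at 833 CPM, and the sum of the 12 markers, at 1315 CPM, was among the higher ones.

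Neither Calcrl nor Ramp3 had a relation with the endothelial score that passed a test over these 6 points, and their r depended on the processing. For Calcrl r was 0.21 (exact permutation p = 0.686, with p = 0.869 once adjusted) and rho 0.14 (exact permutation p = 0.803, with p = 0.803 once adjusted), and without 4 and 6 r was 0.22. For Ramp3 r was -0.08 (exact permutation p = 0.835, with p = 0.869 once adjusted) and rho -0.31 (exact permutation p = 0.564, with p = 0.752 once adjusted), and without 3 and 5 r was 0.21. Under the 12 alternatives r ran from -0.31 to 0.72 for Calcrl and from -0.60 to 0.62 for Ramp3. Both were highest with library totals, and none passed the correction. The summed level of the 12 endothelial markers was highest in 2R, at 1758 CPM, as was Ramp3. Kdr made up 1430 CPM of that sum. Tumor 2R was at the same time lowest of the 8 in Emcn, at 3.74 CPM. Of the 5 lymphatic markers Flt4, the one that passed the filter, was highest in 2L at 31.3 CPM and had 6.23 CPM in 2R and 2.81 CPM, its lowest, in tumor 6, while Lyve1 reached 55.1 CPM in tumor 6, Prox1 16.3 CPM in 2R and Ccl21a had no count, and their part in the level of Ramp3 was not tested.

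Ramp1 and the score of 8 pericyte and smooth muscle markers gave r = 0.10 (exact permutation p = 0.869, with p = 0.869 once adjusted) and rho = 0.37 (exact permutation p = 0.497, with p = 0.752 once adjusted), and without 5 and 6 r was 0.68. Adm with the hypoxia score gave r = 0.83 (exact permutation p = 0.0639, with p = 0.256 once adjusted) and rho = 0.83 (exact permutation p = 0.0583, with p = 0.156 once adjusted), and r was 0.92 without 1 and 5. Numbers 1 and 5 were highest in Adm, number 1 was highest in the score at 5.93, and numbers 3 and 4 were lowest in both, with scores of 4.70 and 4.75. Number 6 departed from this order. Its score of 5.89 was above the 5.71 of number 5, but its log2 CPM of Adm was 1.365, against 2.76 in number 5. Adm passed no correction under any of the 12 alternatives, whose adjusted p ran from 0.0623 to 0.356.

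**Figure D4:**
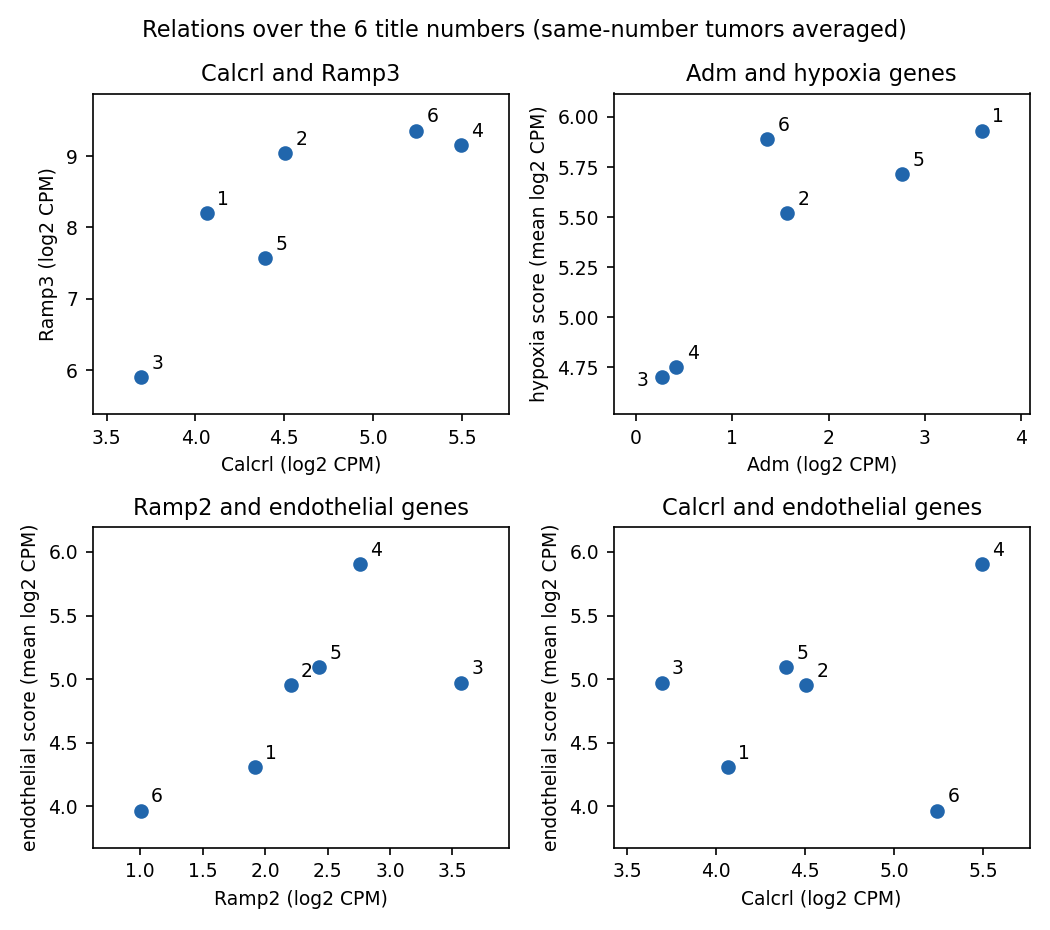
Relations over the 6 title numbers (labelled points), as log2 CPM of the gene on the horizontal axis and log2 CPM of Ramp3 or the mean log2 CPM of a marker list on the vertical axis. Number 3 is lowest in both Calcrl and Ramp3, numbers 3 and 4 lie together at the low end for Adm and hypoxia genes, and number 3 departs from the order of the other points for Ramp2 and endothelial genes.

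The genes whose log2 CPM over the 8 libraries was most like that of each member were found among 11029 protein-coding genes, as a description. For Ramp3 they were Rexo2 (r = 0.98), Rcn3 (0.98) and Pdpn (0.98), which encodes the membrane glycoprotein podoplanin. Pdpn ranged from 6.92 CPM in tumor 3 to 429 CPM in 2R, the same extremes as Ramp3, and its r was 0.95 without library 3. For Ramp2 they were Col4a1 (0.98), a basement membrane collagen, Plvap (0.98), an endothelial protein of fenestrae, and Rap1gap2 (0.98). In TMM-scaled CPM all 3 were lowest in tumor 6 and highest in tumor 3, whose TMM factor was 0.39. Their r without library 3 was 0.98, 0.97 and 0.97. For Calcrl they were Slc22a15 (0.97), Ehd2 (0.96), a protein of caveolae, and Tmem70 (0.96). For Ramp1 they were Alg12 (0.98), Rfk (0.96) and Nt5c3 (0.94), which changed far less in level: Alg12 ranged from 5.37 to 13.3 CPM where Ramp1 ranged from 2.27 to 273 CPM. With so many genes and 8 points, high values of r arise readily.

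All 22 genes of the signal chain through which these receptors act reached a mean of 1 CPM and 17 reached 10 CPM, against 30.7% and 19.1% of all identifiers. Gnas, the stimulatory G protein subunit, averaged 1024 ± 483 CPM (SD, n = 8), from 288 in tumor 3 to 1740 in 2L. Crcp, which encodes the CGRP receptor component protein, was even, at 8.44 ± 1.71 CPM. Among adenylyl cyclases, Adcy2 stood at 165 ± 31.8 CPM with its lowest value of 91.7 in tumor 5, Adcy7 ranged from 18.1 in 3 to 180 in 4b, and Adcy4 from 1.91 in 6 to 15.5 in 4b. The regulatory subunit gene of protein kinase A, Prkar1a, varied least, at 245 ± 28.4 CPM. Arrb1, a β-arrestin gene, stood at 671 CPM in tumor 6, where Ramp1 was also highest, and at 94.7 to 249 CPM in the other 7.

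Of 9 peptide processing and clearance genes, 8 reached a mean of 1 CPM. Pam, whose enzyme amidates the C-terminus that adrenomedullin and CGRP need for activity, averaged 928 ± 490 CPM, from 175 in tumor 3 to 1625 in 2R. The convertase Furin was even at 87.3 ± 16.7 CPM, and the carboxypeptidase Cpe ranged from 6.71 in 6 to 204 in 1. Pcsk1 was also highest in tumor 1, at 599 CPM, the tumor of the highest Adm. Among enzymes that degrade such peptides, Mme (neprilysin) ranged from 0.227 in 4b to 18.4 in 1, Ide averaged 81.02 ± 26.8 CPM and Ece1 221 ± 70.6 CPM. Ackr3, a scavenger receptor that takes up adrenomedullin as well as chemokines, averaged 36.5 ± 15.95 CPM and was highest in tumor 1, at 60.3.

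The related ligand gene Adm2 stood at 5.29 CPM in 2R, from 34 counts, and at most 0.948 CPM in the other 7. Of 9 other receptors reported to pair with RAMPs, 6 reached a mean of 1 CPM and 1 reached 10 CPM, Pth1r, at 16.6 ± 8.83 CPM. For Vipr2, Sctr and Casr that mean rested on few tumors, as their medians were 0.507, 0.0651 and 0.211 CPM. Their highest values were 18.7 CPM in tumor 1, 5.96 CPM in 2L and 14.9 CPM in tumor 3. Vipr1 stood at 32.6 CPM in 2L and at 1.28 to 7.79 CPM elsewhere. The hypoxia list, of which 13 of 14 symbols were matched, varied widely in single genes, P4ha1 from 35.7 CPM in tumor 3 to 1337 in 6 and Bnip3 from 6.39 in 3 to 68.1 in 1. Vegfa, Ldha and Ndrg1 averaged 228 ± 95.6, 261 ± 102 and 137 ± 39.8 CPM (SD, n = 8).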

How the data were processed

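The authors deposited raw counts per Ensembl gene for 8 tumor libraries. The submitters' processing notes name mm10, STAR 2.7.5a, RSEM, cutadapt and featureCounts, in no stated order, and strand handling is not given in the sources used here. From these counts, edgeR 4.0.16 in R 4.3.3 (filterByExpr for 1 group, 0.92 CPM in every library, 11505 genes kept, TMM) gave CPM and log2 CPM with a prior count of 2. GENCODE M21 (mm10) named 99.48% of the identifiers and gave lengths. Promoters are RefSeq's, from GRCm38.p6.

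The members and lists were chosen with earlier results of these data known, so levels and ratios carry no test. Relations used exact permutation over 6 title numbers and Benjamini-Hochberg adjustment over 8 relations, and no label ties tumors to separate animals. That adjustment covers neither the choice of members and lists nor the number of alternatives, so the p-values of relations are also given as a description. Besides the members, the text names from each pathway list the 4 kept genes of highest mean, the 2 of largest SD and those that bind or process member peptides, and the 3 genes most like each kept member. Vipr2, Sctr and Casr were named after their values were seen. Other cell types were read as sums over fixed marker lists, with single markers named after their values were seen, of which the osteoclast, lymphatic, keratinocyte, fat and muscle lists kept 1 or 2 genes. Alternatives were DESeq2 1.42.0 size factors, library totals, other filters, prior counts and lengths, and libraries left out. Computations were tested on simulated data. Intervals and the limit for a count of 0 (3 counts) cover counting error only.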

Additional observations from a re-analysis of the deposited data

Results flagged for a closer look

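Of 34 sets of 8 values examined, 10 had a highest or lowest tumor far from the nearest other by Dixon's criterion. For normal values chance flags about 1 in 20, but these values are skewed and the members were chosen with them known, so the values are given as a description. Among members, Ramp1 was set apart by tumor 6, at 272.6 CPM against 65.7 CPM in the next, tumor 5. Calca was set apart by tumor 5, at 4.002 CPM against 0.51 CPM in the next, 2L. All 3 ratios to Calcrl per kilobase of merged exons had 1 tumor far above the rest. The ratio of Ramp1 was 11.7 in tumor 6 against 5.09 in tumor 5. That of Ramp2 was 1.36 in tumor 3 against 0.457 in 2L and rests on 22 and 24 counts of Ramp2 and Calcrl. That of Ramp3 was 181 in 2R against 64.4 in 4a.

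Among other genes of the pathway, Arrb1 stood at 671 CPM in tumor 6 against 249 CPM in the next, and Ide at 140 CPM in tumor 6 against 89.4 CPM. Adm2 stood at 5.29 CPM in 2R against 0.948 CPM, and Vipr1 at 32.6 CPM in 2L against 7.79 CPM. Adcy2 was low in tumor 5, at 91.7 CPM against 159 CPM in the next lowest. In the same tumor 6 that was highest in Ramp1, Arrb1 and Ide, macrophage markers summed to 2372 CPM, and their part was not tested.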

How the results depend on the processing

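Mean CPM of the 8 members had 96 alternatives, which left out each library in turn (chosen after seeing the data, except library 3) or changed scaling or filter. With changed scaling or filter, each mean moved by less than its SD. Leaving out 1 of 8 values cannot move a mean by its SD, so there that outcome was fixed in advance. Without tumor 6 the mean of Ramp1 fell from 54.2 to 23.0 CPM. Without tumor 5 that of Calca fell from 0.691 to 0.218 CPM. Shares of the RAMP level depended on length: with coding transcript lengths, an alternative chosen after seeing the data, the means were 12.9% for Ramp1, 7.07% for Ramp2 and 80.1% for Ramp3. Scaling within a library cannot change these shares. TMM scaling does bear on which tumor is highest. Unscaled, Ramp2 held 22 of 4817902 counts in tumor 3 and 181 of 19682149 in 2L, a larger part in 2L. Ramp3 held 7278 of 7847571 counts in 2R and 20540 of 18435263 in 4a, a larger part in 4a.

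Of 65 alternative log2 ratios, 7 lay outside the counting interval and none turned. With library totals the 2L over 2R ratios were 3.06 for Ramp1, -1.54 for Ramp3 and 0.71 for Calcrl, and the 4a over 4b ratios 1.31 for Ramp3 and 0.27 for Calcrl. Library totals moved the median log2 ratio of all genes kept to 0.62 for 2L over 2R (-0.04 with TMM) and 0.14 for 4a over 4b (-0.01 with TMM). With no filter Ramp3 had -2.07 and 1.24. Genes at least 2-fold apart numbered 1997 for 2L and 2R, but 3289 with library totals, 7562 with no filter and 3880 with a mean CPM of at least 1. For 4a and 4b they numbered 512, but 2829 with no filter and 1242 with that mean, as more genes of low count then enter.

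Of 96 alternative relations, 87 were unchanged in direction and call. With library totals r was 0.042 for Calcrl with Ramp2 and 0.62 for Ramp3 with the endothelial score, which was 0.016 with no filter. Over 7 libraries without library 3, r was 0.16 for Calcrl with Ramp2 and 0.94 for Ramp2 with the endothelial score (past the threshold). In that setting libraries of the same title number were separate points. With list medians r was -0.31 for Calcrl and 0.97 for Ramp2 with the endothelial score, the last past the threshold. That threshold takes no account of the number of alternatives or of the choice of members and lists. The r of Calcrl with the endothelial score reached 0.72 with library totals, unchanged in direction and call. Leaving out 2L, 2R, 4a or 4b in turn gave r from -0.25 to 0.035 for Ramp3 with the endothelial score and from -0.087 to 0.32 for Ramp1 with the pericyte score. The cause was not tested. No paired analysis was possible because the tumors form 1 group. The fewest counts, in library 3, limit Adm, Calca, Calcb and Ramp1 there most.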
